A study of Canis lupus familiaris with 21 samples.

Results

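The mRNAs of the nuclear-encoded subunits of oxidative phosphorylation were followed in 21 RNA-seq libraries of companion dogs. Members were taken by gene symbol, under a rule set with earlier results of these data known. The rule took symbols that begin with NDUFA, NDUFB, NDUFC, NDUFS or NDUFV and a number, SDHA to SDHD and symbols that begin with UQCR. It also took CYC1, COX4 to COX8 subunits and symbols that begin with ATP5, which gave 74 of the 34981 genes in each table. They comprised 36 subunits of complex I, 4 of complex II, 8 of complex III, 11 of complex IV and 15 of complex V. The inhibitor of complex V, ATP5IF1, was counted with its subunits. NDUFA4 and its paralogue NDUFA4L2 were counted with complex IV. Of the 74 members, 73 had a mean normalised count of at least 10 and were tested in each tissue. ATP5ME was not tested: it was listed at 0 in the 9 cortex libraries and had a mean of 5.47 in plasma. COX6A1, COX6B1, COX6C, COX7A2, COX7B and COX7C of complex IV and UQCRB of complex III had no row under these symbols and were not analysed. Some ATP5 genes were also absent, so the counts of these complexes do not cover all their subunits.

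Prefrontal cortex gave 9 libraries of polyadenylated RNA, 3 from dogs with CCD (canine cognitive dysfunction, in which aged dogs lose memory and learned habits), 3 from old dogs and 3 from young dogs. Plasma gave extracellular vesicles (EVs, small particles enclosed by membrane and shed by cells), with 12 libraries of total RNA depleted of ribosomal RNA, 4 each from CCD, old and young dogs. The labels give no age in years, sex, breed or batch, no treatment and no severity of disease, and CCD is the only diagnosis they name. They do not say that each library is a separate dog, so p-values measure the spread between these libraries, which are named by group and label number; the cortex numbers recur among the EV libraries.

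Complexes I to IV of the inner mitochondrial membrane pass electrons from NADH and succinate to oxygen and, except for complex II, pump protons; complex V uses the proton gradient to make ATP. Complexes I, III, IV and V combine subunits from nuclear genes with a few from mitochondrial DNA, while complex II is wholly nuclear. Neurons depend heavily on this pathway to restore ion gradients after firing. The roles given for single subunits below are those known from human and bovine enzymes.

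The cortex libraries held 14.9 to 31.4 M reads, of which the CCD libraries held 14.9 to 18.9 M, the old libraries 24.2 to 27.5 M and the young libraries 22.3 to 31.4 M. A tested subunit had a median of 2674 reads per cortex library. In EVs the libraries held 27.5 to 45.0 M reads, but 15.8% to 25.1% of them were counted to genes, the rest to repeat families, and a tested subunit had a median of 51 reads. The label of cortex was matched by 8713 to 21508 normalised counts of the excitatory neuron gene SLC17A7 in the 9 libraries. Of the liver genes measured, FGB was at 0, ALB at 11.1 to 61.0 and APOB at 15.5 to 110.8 in cortex. APOA1, also on the liver list, was at 1780.7 to 17147.2. EV libraries carried blood genes such as SLC4A1 of red cells (174 to 400.0 normalised counts), but also SLC17A7 (204 to 553) and the muscle gene MYH7 (485 to 1399). One cortex library stood apart: young cortex_377 had the lowest level of 64 of the 73 tested subunits, while 22.1% of all 19010 tested genes were lowest there. The medians of comparisons with young cortex, and values of those comparisons that turn on it, are therefore given with and without it. Standard errors and limma p-values of CCD over old cortex pool the spread of the 3 groups, so they include young cortex_377 unless stated.

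In cortex the question was whether the subunit mRNAs differ between CCD and normal ageing. Together the members made up 1.46%, 1.21% and 1.15% of gene reads in CCD cortex_163, cortex_354 and cortex_358, against 1.10%, 1.04% and 0.971% in old cortex_250, cortex_253 and cortex_264. The 2 groups did not overlap, and the lowest CCD library lay close above the highest old one. Libraries of these groups are given in this order throughout, followed by young cortex_270, cortex_353 and cortex_377, whose shares were 1.36%, 1.18% and 0.646%. In bulk tissue, fewer cells of a type and less RNA per cell cannot be told apart.

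None of the 73 tested subunits passed an adjusted p of 0.05 between CCD and old cortex (limma with Benjamini-Hochberg adjustment over 19010 genes, of which 0% passed). At an unadjusted p under 0.05 limma had 1 subunit higher and 3 lower, against 3.99% and 10.8% of all genes. On recovered reads, edgeR and DESeq2 called 0 subunits as well, of 162 genes called by DESeq2 and 0 by edgeR. At an unadjusted p under 0.05 edgeR had 9 subunits higher and 3 lower, against 6.93% and 6.07% of all genes, and DESeq2 had 15 and 3, against 8.63% and 7.04%. The count depended on the fit: limma on the CCD and old libraries alone called 12 subunits (16.4%) among 1778 genes (9.35%), library weights gave 5 (6.85%) among 1632 (8.58%), and leaving out young cortex_377 gave 2 (2.74%) among 741 (3.90%). Leaving out CCD cortex_358, young cortex_353 and young cortex_377, which are high in meningeal genes, gave 31 (42.5%) among 2922 (15.4%), 27 of them higher, with 2 CCD libraries and 1 young library left. The direction was uneven among the members. The log2 fold change of CCD over old was positive for 60 of 73 subunits, with a median of 0.40, whereas the median of all genes tested was -0.10 and 42.9% of them were positive. All 3 CCD libraries lay above all 3 old libraries for 36 subunits (49.3%), against 11.9% of all genes, and below them for 5 subunits (6.85%), against 22.6% of all genes.

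**Figure D1:**
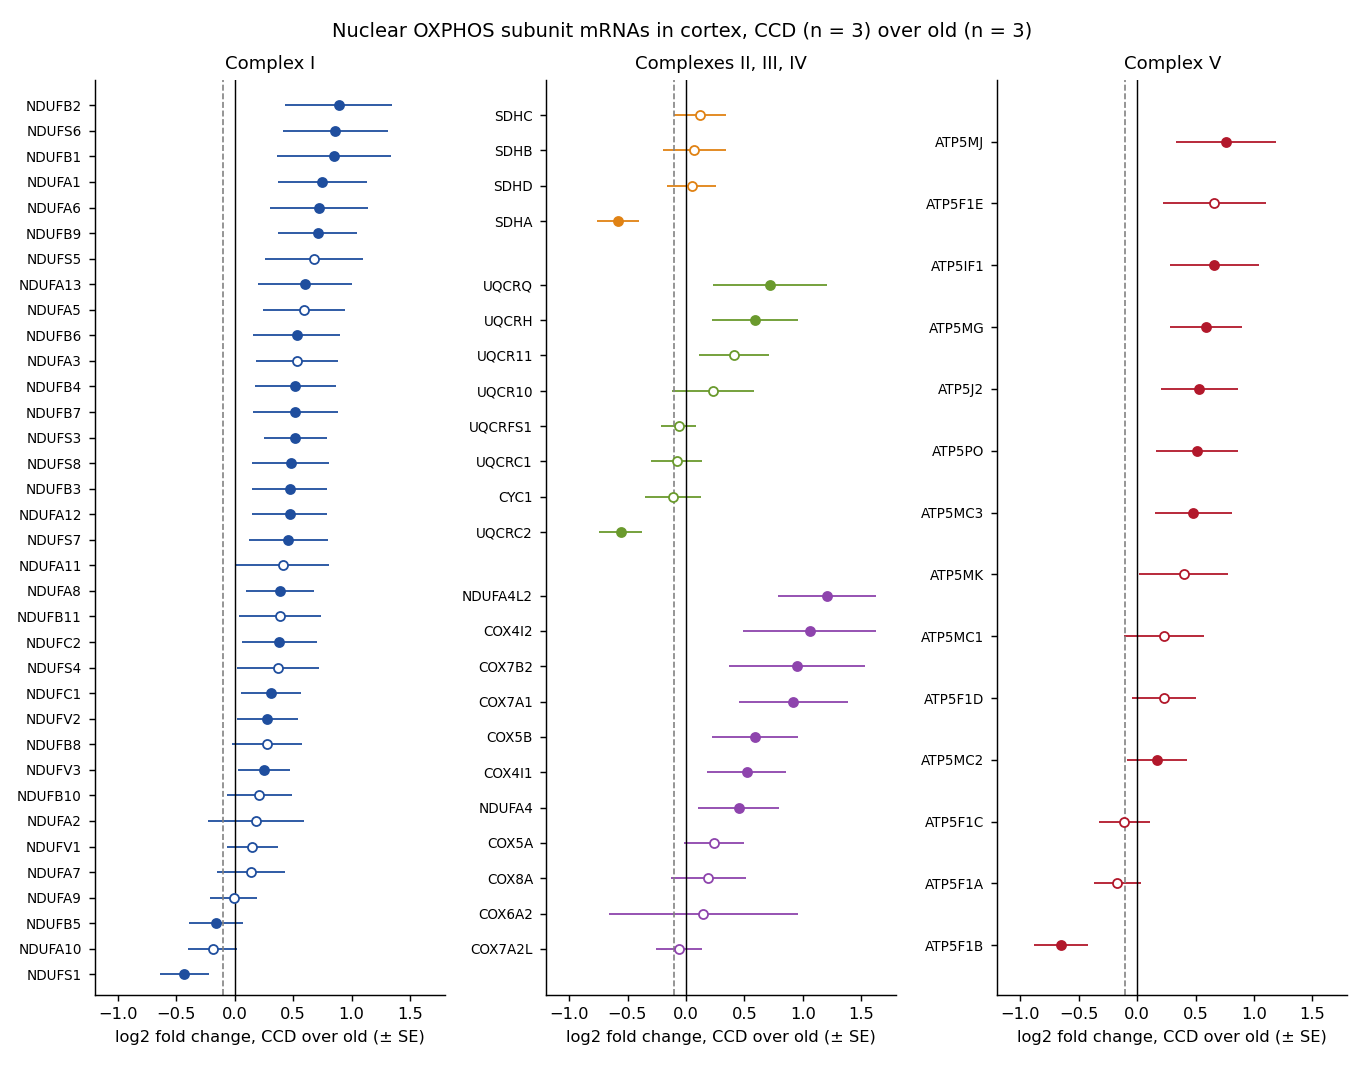
The log2 fold change of CCD (n = 3) over old (n = 3) cortex is plotted on the x axis for the tested subunits (all 73 but 1), with bars for the standard error. Filled points mark subunits whose CCD and old libraries do not overlap, the dashed line is the median of all genes at -0.10, and most points lie right of 0.

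Complex I, the NADH dehydrogenase, held most of the members that separated the groups, which was close to its share of all tested subunits. The share of subunits higher in CCD without overlap was larger in complex IV. Of the 36 subunits of complex I, 32 had a positive log2 fold change, with a median of 0.43 (0.53 above the median of all genes). Of these 36, 20 were higher in every CCD library than in every old library and 2 were lower. NDUFB9, an accessory subunit of the membrane arm, had the smallest p of the complex. It was at 8289, 7529 and 7044 normalised counts in CCD cortex, 4799, 4557 and 4562 in old cortex, and 7771, 5939.8 and 2474 in young cortex. The CCD and old libraries were far apart and each tight, while the young libraries spanned both (log2 fold change of CCD over old 0.71 ± 0.34 SE, limma adjusted p = 0.351). On the CCD and old libraries alone the SE was 0.12 (limma adjusted p = 0.0154, with 9.35% of all genes called). Without young cortex_377 it was 0.14 (limma adjusted p = 0.0331, with 3.9% of all genes called).

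NDUFB2, another small accessory subunit, had the largest positive value of the complex, with 3283, 2003 and 1615 normalised counts in CCD cortex, against 1219, 1256 and 1095 in old cortex (0.89 ± 0.46 SE, limma adjusted p = 0.375). NDUFS6, a zinc-binding accessory subunit, averaged 3399 ± 1010.1 normalised counts in CCD cortex and 1835 ± 309 in old cortex (SD, n = 3 each), a log2 fold change of 0.86. CCD cortex_163 was the highest library for both, and neither gene overlapped between the groups.

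NDUFS1, the largest subunit of complex I and a carrier of several of its iron-sulfur clusters, went the other way. It was at 2613, 2837 and 3163 normalised counts in CCD cortex, 3675, 3796 and 4139 in old cortex, and 3737, 2499 and 4199 in young cortex. All CCD libraries were below all old ones, and young cortex_353 was below both groups (-0.43 ± 0.21 SE, limma adjusted p = 0.354). The other subunit with CCD below old throughout was NDUFB5, an accessory subunit of the membrane arm, where the gap was small (1317 ± 29.8 in CCD against 1473 ± 128 in old, SD, n = 3 each).

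The 7 nuclear core subunits of complex I, which carry out its electron transfer, had a median log2 fold change of 0.28, against 0.47 for the 29 accessory subunits. Of the core subunits, 4 were higher in CCD without overlap (NDUFS3, NDUFS7, NDUFS8 and NDUFV2, at 0.28 to 0.52) and 1 was lower. NDUFV1, which binds NADH and flavin, stood at 0.15 ± 0.22, with overlapping groups. The difference between core and accessory subunits was not tested.

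Complex II, succinate dehydrogenase, had 3 of 4 subunits slightly above 0 and a median of 0.06, or 0.16 above all genes, with SDHA as the exception. SDHA, the flavoprotein that oxidises succinate, was at 3576, 3782 and 4609 normalised counts in CCD cortex, 6405, 5466 and 5912 in old cortex, and 5418, 4549 and 5609 in young cortex. The CCD libraries lay below every old library and overlapped the young ones (CCD over old -0.58 ± 0.18 SE, limma adjusted p = 0.29). Its partner SDHB, the iron-sulfur subunit, was at 2921, 2639.6 and 2672 in CCD cortex against 2712, 2737 and 2409 in old cortex, with overlapping groups (0.07 ± 0.27). The membrane anchors SDHC and SDHD, which bind the quinone, were at 0.12 ± 0.22 and 0.05 ± 0.21. Within a library the ratio of SDHA to SDHB was 1.22, 1.43 and 1.72 in CCD cortex, against 2.36, 2.0 and 2.45 in old cortex, and 1.45, 1.69 and 3.49 in young cortex. The ratio was lower in each CCD library than in each old one, and young cortex_377 had the highest value. SDHA alone separated CCD from old, so the ratio is not independent of it.

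Complex III, the cytochrome bc1 complex, had 4 of 8 subunits above 0. Of the 4 small subunits, UQCRQ and UQCRH were higher in CCD without overlap. UQCRQ, which sits by cytochrome b, was at 3964, 2731 and 2411 normalised counts in CCD cortex, 2045, 1723 and 1655 in old cortex, and 3146, 2988 and 678 in young cortex (CCD over old 0.72 ± 0.49). UQCRH, the hinge protein beside cytochrome c1, stood at 0.59 ± 0.37, while UQCR10 (0.23 ± 0.35) and UQCR11 (0.41 ± 0.30) overlapped. UQCRC2, one of the 2 large core proteins on the matrix side, was at 1284, 1418.5 and 1811 in CCD cortex, 2229, 2249 and 2113 in old cortex, and 1844, 1624 and 1857 in young cortex. Every CCD library was below every old library (-0.56 ± 0.18 SE, limma adjusted p = 0.29). The other core protein UQCRC1 (-0.08 ± 0.22) and the redox subunits CYC1, cytochrome c1 (-0.11 ± 0.24), and UQCRFS1, the Rieske iron-sulfur protein (-0.06 ± 0.15), overlapped between the groups, at about the median of all genes. SDHA and UQCRC2 overlap the genes CCDC127 and PDZD9 in RefSeq, so their counts may hold reads of both.

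Complex IV, cytochrome c oxidase, had 10 of 11 members above 0 in CCD over old and the highest median of the 5 complexes, 0.52, or 0.62 above all genes. That median includes NDUFA4L2 and COX4I2, which had large values at means of only 152.7 and 117.2 normalised counts in cortex. COX6A2, lower still, had a small value (0.15). Of the more abundant members, COX5B (0.59), COX4I1 (0.52), NDUFA4 (0.45) and COX5A (0.24) had smaller values than NDUFA4L2 and COX4I2. Whether the rank holds without the low-level members was not tested. NDUFA4L2, a paralogue of NDUFA4 that is induced by low oxygen, had the largest value of all members. It was at 131, 236 and 282 normalised counts in CCD cortex, 99.4, 75.2 and 92.5 in old cortex, and 147, 228 and 84.4 in young cortex. CCD lay above old throughout, with a wide spread among the CCD libraries (1.21 ± 0.42 SE, limma adjusted p = 0.29). Its gene overlaps SHMT2 in RefSeq, and reads from the 2 genes may not be told apart.

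COX4I2, the alternative form of subunit 4 linked to low oxygen, was at 188, 86.3 and 157 normalised counts in CCD cortex against 86.0, 51.4 and 61.7 in old cortex (1.06 ± 0.57). The usual form COX4I1 averaged 12015 ± 2113 in CCD cortex and 8340.4 ± 913 in old cortex (SD, n = 3 each), or 0.52 ± 0.34. Neither form overlapped between the groups, although CCD cortex_354 and old cortex_250 nearly met for COX4I2. NDUFA4L2 and COX4I2 are strongly expressed by brain pericytes in mouse. The summed level of 8 pericyte genes was 1597 to 4019 normalised counts in CCD cortex, against 1841 to 3158 in old cortex, with overlap. That list was added after the values of these genes were seen. The part of pericytes in the values of NDUFA4L2 and COX4I2 was not tested.

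COX7A1, the form of subunit 7A that predominates in heart and skeletal muscle, was at 1330.2, 1283 and 755 normalised counts in CCD cortex, 694, 619 and 445 in old cortex, and 1225, 1013 and 296 in young cortex (CCD over old 0.92 ± 0.47 SE, limma adjusted p = 0.371). COX5B, a zinc-binding subunit, was at 8542, 8141 and 6176 in CCD cortex, 4939, 5768 and 4458 in old cortex, and 7708, 6336 and 2348 in young cortex (0.59 ± 0.37). Both separated CCD from old, and the young libraries ran from below every old library into the CCD range. NDUFA4 itself stood at 0.45 ± 0.35 without overlap, while COX5A (0.24 ± 0.26), COX8A (0.19 ± 0.32), the muscle form COX6A2 (0.15 ± 0.81, at a mean of 10.6 normalised counts) and the supercomplex factor COX7A2L (-0.06 ± 0.20) overlapped.

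Complex V, the ATP synthase, had 11 of 14 tested subunits above 0. ATP5F1B, the catalytic beta subunit, had the most negative value of all members: 10463, 9809 and 14603 normalised counts in CCD cortex, 20216, 16098 and 17652 in old cortex, and 19171, 12648 and 16267 in young cortex. The CCD libraries were below every old library, with CCD cortex_358 nearest to them (-0.65 ± 0.23 SE, limma adjusted p = 0.291). The other subunits of the head went both ways and overlapped between the groups: ATP5F1A, the alpha subunit, stood at -0.17 ± 0.20, ATP5F1C, the gamma subunit, at -0.11 ± 0.22, ATP5F1D, the delta subunit, at 0.23 ± 0.27, and ATP5F1E, the epsilon subunit, at 0.66 ± 0.44. The 5 had a median of -0.11, near the -0.10 of all genes. The 9 other tested members, the inhibitor ATP5IF1 among them, were all above 0, with a median of 0.51 and 7 of them without overlap. Their difference from the head was not tested.

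ATP5IF1, the inhibitor that blocks ATP hydrolysis by the enzyme, was at 5259, 4851 and 3982 normalised counts in CCD cortex, 2829, 3104 and 2945 in old cortex, and 4636, 3824 and 1349.9 in young cortex (CCD over old 0.66 ± 0.38). Subunit g, ATP5MG, was at 5165, 3734 and 3333 in CCD cortex against 2667, 2991 and 2366 in old cortex (0.59 ± 0.31). Both were higher in each CCD library than in each old one. The c-ring genes ATP5MC1, ATP5MC2 and ATP5MC3, which encode the same mature protein, stood at 0.23 ± 0.34, 0.17 ± 0.26 and 0.48 ± 0.33. The ratio of ATP5F1B to ATP5F1E was 1.47, 1.81 and 3.49 in CCD cortex, against 6.41, 3.75 and 5.85 in old cortex, and 3.36, 2.78 and 11.6 in young cortex. It was lower in every CCD library than in every old one, by a small gap between CCD cortex_358 and old cortex_253. These genes had the most negative and the most positive value of the head, so their ratio is not independent of those values.

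**Figure D2:**
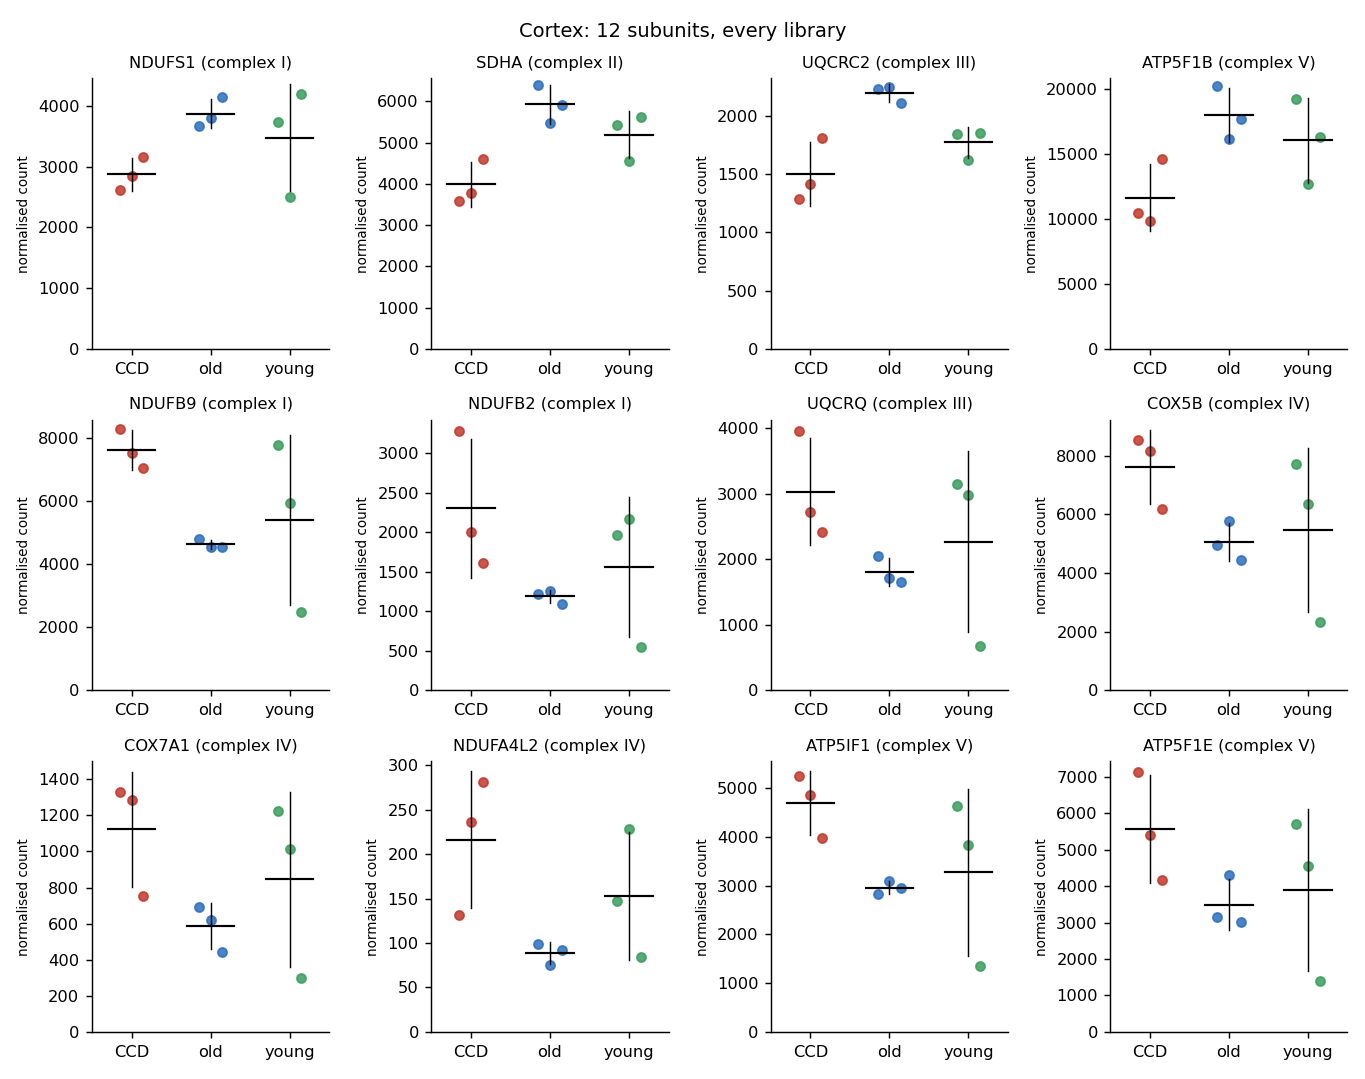
Normalised counts of 12 subunits are plotted for every cortex library, with CCD left of old and young; horizontal bars are group means and vertical bars 1 SD (n = 3 each). NDUFS1, SDHA, UQCRC2 and ATP5F1B in the top row lie lower in CCD than in old cortex, the other 8 lie higher on average, and young cortex_377 is the lowest point for 7 of those 8, NDUFA4L2 being the exception.

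Each library was then given a score. The median over the 73 subunits of the log2 level less its mean over the 9 libraries was 0.52, 0.23 and 0.08 in CCD cortex, -0.04, -0.03 and -0.26 in old cortex, and 0.35, 0.16 and -0.98 in young cortex. CCD and old did not overlap, but 2 of the 3 young libraries lay within the CCD range. Over the 4 subunits of complex II it was 0.02, -0.03 and 0.07 in CCD cortex, against 0.16, 0.05 and -0.07 in old cortex, with overlap. CCD cortex_163 was the highest library for 44 of 73 subunits, against 12.7% of all genes. Without it, the members' median of CCD over old less that of all genes was 0.35, against 0.49 with all libraries.

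Other measures also differed between these libraries, not all in the same order. The 74 cytosolic ribosomal protein genes tested had a median log2 fold change of CCD over old of 0.69, with 73 of them above 0, and their library score was 0.61, 0.30 and 0.22 in CCD cortex, -0.35, -0.02 and -0.54 in old cortex, and 0.42, 0.45 and -1.13 in young cortex. The 6 mitochondrially encoded genes measured took 6.45%, 9.11% and 6.97% of gene reads in CCD cortex, against 3.15%, 4.52% and 2.98% in old cortex. In young cortex they took 4.2%, 5.75% and 2.55%. The summed level of the 6 excitatory neuron markers was 39471 to 54613 normalised counts in CCD cortex, 69202 to 92862 in old cortex and 45589 to 108320.1 in young cortex, with the highest sum in young cortex_377. The 4 oligodendrocyte markers measured summed to 243090 to 627007 in CCD cortex, 196133 to 271130 in old cortex and 34101 to 214585 in young cortex. The 6 astrocyte markers summed to 88820 to 89168 in CCD cortex, 65548 to 83189 in old cortex and 105001 to 111285 in young cortex, so CCD lay above old without overlap and below young. CCD libraries were the shallowest, and the part of depth, RNA quality and cell makeup in the subunit values was not tested.

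**Figure D3:**
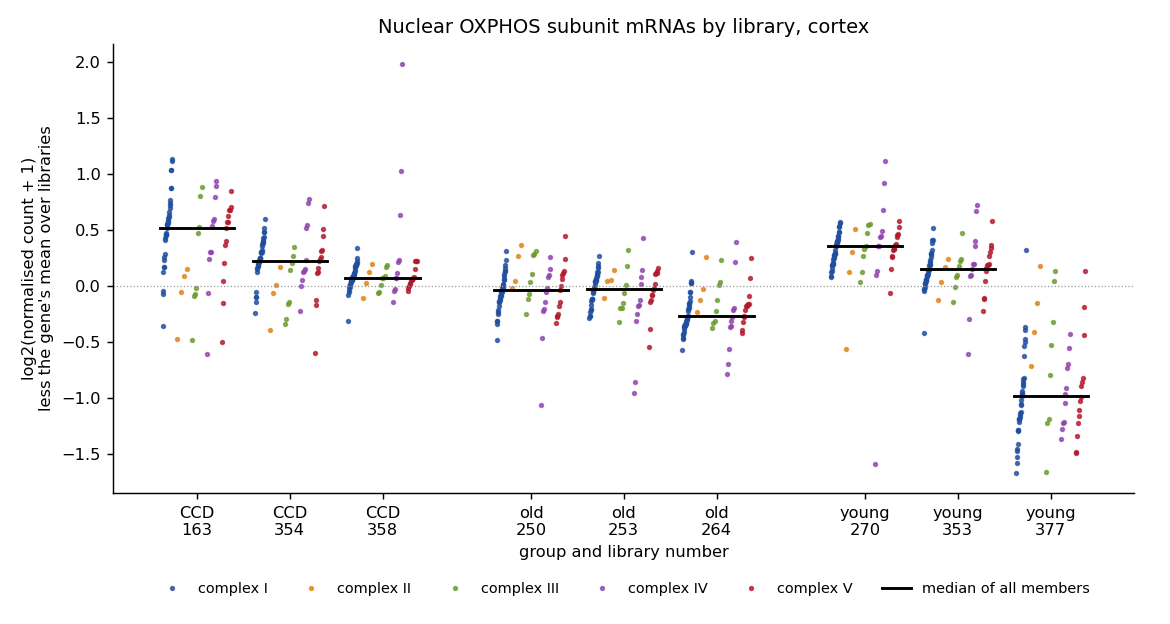
Each point is a tested subunit in a cortex library; the y axis is its log2(normalised count + 1) less its mean over the 9 libraries, colours mark the complex, and black bars are medians over the 73 subunits. The bars are above 0 in the 3 CCD libraries, below 0 in the 3 old libraries, and at -0.98 in young cortex_377.

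Assembly factors, which build the complexes without being part of them, were more evenly divided. Of 49 tested, 28 (57.1%) had a positive log2 fold change of CCD over old in cortex, against 60 of 73 subunits and 42.9% of all genes. Without overlap 9 were higher and 11 lower, against 11.9% and 22.6% of all genes. In limma 0 passed the adjusted test, and an unadjusted p under 0.05 was reached by 2 on the higher side and 6 on the lower, near the 3.99% and 10.8% of all genes. The 16 factors of complex I had a median of 0.05 and the 18 of complex IV a median of -0.02. SURF1, a factor of complex IV, averaged 6321 ± 839.5 normalised counts in CCD cortex and 3761 ± 517 in old cortex (0.75 ± 0.34 SE, limma adjusted p = 0.336). TIMMDC1, a factor of complex I, averaged 277.5 ± 60.0 in CCD and 533 ± 46.1 in old cortex (-0.96 ± 0.25, limma adjusted p = 0.29), and COX10, which makes the heme of complex IV, averaged 71.9 ± 38.6 and 189 ± 66.3 in these groups (-1.50 ± 0.48, limma adjusted p = 0.29; SD, n = 3 each throughout).

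Of 10 regulators of mitochondrial biogenesis, 3 were above 0 and the median was -0.07. PPARGC1A, the coactivator PGC-1α, averaged 285 ± 75.7 normalised counts in CCD cortex and 611 ± 158 in old cortex (-1.10 ± 0.44 SE, limma adjusted p = 0.308), without overlap. The transcription factors NRF1 (0.31 ± 0.20) and TFAM (0.10 ± 0.22) overlapped between the groups. Of 5 further carriers, cytochrome c (CYCS) stood at 0.26 ± 0.32 and NDUFAB1, the mitochondrial acyl carrier protein, at 0.35 ± 0.33, both with overlap. ETFB, a subunit of the electron transfer flavoprotein, was higher in every CCD library than in every old one (0.51 ± 0.28), and ETFDH, which passes the electrons of that protein to quinone, was lower (-0.54 ± 0.19). ETFA, the other subunit, stood at -0.13 ± 0.20.

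Between old and young cortex the subunits hardly differed in the middle: the median log2 fold change of old over young was 0.06, against 0.03 for all genes, with 50 of 73 above 0. No subunit passed the adjusted test in limma (0% of all genes). In limma 0 had an unadjusted p under 0.05, against 2.85% of all genes higher and 3.89% lower. On recovered reads edgeR and DESeq2 called 0 subunits, of 0 and 216 genes called. At an unadjusted p under 0.05 edgeR had 0 subunits, against 2.04% of all genes higher and 6.02% lower. DESeq2 had 0 higher and 1 lower, against 2.61% and 6.93%. Old libraries lay above all young ones for 2 subunits, UQCRC2 and COX6A2, against 6.56% of all genes, and below them for 0, against 5.65%. COX6A2 had only 2 to 29 reads per cortex library, with a median of 8. UQCRC2 averaged 2197 ± 73.6 normalised counts in old cortex and 1775 ± 131 in young cortex (SD, n = 3 each), or 0.31 ± 0.18 (limma adjusted p = 0.824). COX7A2L had the smallest p, at 0.38 ± 0.20 (limma adjusted p = 0.781), and NDUFA4L2 stood at -0.67 ± 0.42.

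This middle position rested on young cortex_377. Without it, the median of old over young less that of all genes was -0.41, against 0.02 with it, and it was -0.39 for complex I, -0.06 for II, -0.28 for III, -0.51 for IV and -0.44 for V. At an unadjusted p under 0.05 limma then had 28 subunits lower and 0 higher, against 8.2% and 10.1% of all genes, with 0 subunits and 41 genes called. COX7A2L was then at 0.23 ± 0.17 and NDUFA4L2 at -1.04 ± 0.38. COX4I2 was at -1.52 ± 0.41 (limma adjusted p = 0.114), COX7A1 at -0.95 ± 0.28 (adjusted p = 0.137) and ATP5IF1 at -0.51 ± 0.17 (adjusted p = 0.16), while SDHA (0.25 ± 0.17) and UQCRC2 (0.34 ± 0.18) kept a positive value. The young group then holds 2 libraries.

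Between CCD and young cortex the median log2 fold change was 0.44, against -0.09 for all genes, with 61 of 73 subunits above 0. No subunit passed the adjusted test in limma (0% of all genes). In limma 0 had an unadjusted p under 0.05, against 4.13% of all genes higher and 8.74% lower. On recovered reads edgeR and DESeq2 called 0 subunits, of 0 and 208 genes called. At an unadjusted p under 0.05 each had 1 subunit higher and 0 lower. Of all genes, edgeR had 5.07% higher and 7.87% lower, and DESeq2 6.03% and 8.74%. CCD libraries lay above all young ones for 0 subunits, against 5.28% of all genes, and below them for UQCRFS1 alone, against 8.22%. UQCRFS1 averaged 2777 ± 90.5 normalised counts in CCD cortex and 3194 ± 58.1 in young cortex (SD, n = 3 each), or -0.20 ± 0.15 (limma adjusted p = 0.555). SDHA (-0.38 ± 0.18, adjusted p = 0.393) and ATP5F1B (-0.47 ± 0.23, adjusted p = 0.405) were again on the negative side and NDUFS5, an accessory subunit of complex I, on the positive (0.86 ± 0.42, adjusted p = 0.403). Without young cortex_377, the median less that of all genes was 0.11, against 0.53 with it, and NDUFS5 stood at 0.30 ± 0.26, while SDHA was at -0.32 ± 0.17 and ATP5F1B at -0.44 ± 0.23. CCD over old, old over young and CCD over young share libraries, so their values are not independent of each other.

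In plasma EVs the members made up 0.0593% to 0.0800% of gene reads in CCD, 0.0716% to 0.133% in old and 0.0653% to 0.169% in young libraries. The 2 tissues were normalised separately and made with different library kits, so these shares were not compared with cortex by a test. COX8A, a small subunit of complex IV, weighed heavily in these shares. Without it they were 0.0572% to 0.0704% in CCD, 0.0666% to 0.0800% in old and 0.0610% to 0.0871% in young EVs. COX8A was at 579.8, 330.3, 241 and 184 normalised counts in CCD EV_163, EV_354, EV_358 and EV_523, at 356, 131, 2497 and 4388 in old EV_250, EV_253, EV_264 and EV_519, and at 70.1, 528, 8752.6 and 374 in young EV_270, EV_353, EV_377 and EV_502. One young and 2 old libraries were far above the other 9, and the groups overlapped (CCD over old -1.48 ± 1.25 SE, limma adjusted p = 0.794). The genes on either side of it in RefSeq, OTUB1 and NAA40, ranged from 82.1 to 208.4 and from 80.6 to 249.3 normalised counts over the 12 libraries. MACROD1, the next gene beyond OTUB1, ranged from 90.3 to 317.9, with its highest values in old EV_519 (317.9) and old EV_264 (283.2) and 200.5 in young EV_377.

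Between CCD and old EVs 0 of 73 subunits passed the adjusted test in limma, as did 0% of all 31728 genes tested; edgeR and DESeq2 called 0 subunits. At an unadjusted p under 0.05 limma had 1 subunit higher and 1 lower, against 0.64% and 5.34% of all genes. At that threshold edgeR and DESeq2 each had 2 higher and 0 lower. Of all genes, edgeR had 2.22% higher and 1.04% lower, and DESeq2 2.38% and 1.48%. The median log2 fold change was -0.16, against -0.27 for all genes, and 23 of 73 were above 0. By complex, the median less that of all genes was 0.14 for I, 0.01 for II, 0.09 for III, 0.11 for IV and 0.20 for V. With single libraries left out these ranged from 0.00 to 0.28, -0.14 to 0.05, -0.12 to 0.27, -0.06 to 0.29 and 0.04 to 0.45, in the order of the complexes. The sign turned without CCD EV_523 for II (-0.14), III (-0.12) and IV (-0.06), without old EV_253 for II (-0.03) and III (-0.12), and without old EV_250 for II (-0.02). Over all 73 subunits it was -0.02 without CCD EV_523 and -0.01 without old EV_253, against 0.11 with all libraries. Values of single subunits in CCD over old EVs below include the shift of -0.27 of all genes, which edgeR and DESeq2 scaling removed (-0.02 and -0.03). CCD lay above old without overlap for 1 subunit, against 0.845% of all genes, and below it for 2, ATP5MC1 and NDUFS6, against 5.08%.

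The higher one was NDUFA13, an accessory membrane subunit of complex I also known as GRIM-19. It was at 129, 129.6, 136 and 132 normalised counts in CCD EVs, 87.6, 80.2, 72.0 and 67.0 in old EVs, and 95.9, 114, 131 and 128 in young EVs. The old libraries lay below all others, and the 4 CCD libraries were nearly equal (CCD over old 0.78 ± 0.20 SE, limma adjusted p = 0.777; unadjusted p = 0.00174). Over the alternatives its adjusted p ranged from 0.228 to 1.0. In cortex the same gene stood at 0.60 ± 0.40 in CCD over old and at -0.06 ± 0.40 in old over young. It was higher in each CCD cortex library than in each old one, as were 49.3% of the tested subunits and 11.9% of all genes.

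UQCRC1, the core protein of complex III, was at 86.2, 71.2, 137 and 67.2 normalised counts in CCD EVs, 112, 124, 132 and 141 in old EVs, and 139, 158, 157 and 135 in young EVs. Of the CCD libraries 3 were below every other library, and CCD EV_358 lay among the old ones (CCD over old -0.54 ± 0.24 SE, limma adjusted p = 0.777; CCD over young -0.75 ± 0.24, adjusted p = 0.9999). With edgeR and DESeq2, CCD over old was -0.23 and -0.24 for UQCRC1, and 1.06 with either tool for NDUFA13. SDHC was at 36.2, 37.4, 51.4 and 46.2 in CCD EVs and 68.1, 66.6, 45.2 and 77.2 in old EVs, with overlap through old EV_264 (-0.56 ± 0.32). Of the 5 members lower in CCD than in old cortex without overlap, 3 were SDHA, UQCRC2 and ATP5F1B. In EVs these stood at -0.10 ± 0.21, -0.34 ± 0.38 and -0.03 ± 0.36, with overlapping groups. With edgeR, SDHA was at 0.16, ATP5F1B at 0.22 and NDUFS1, another of the 5, at 0.14. NDUFB5, also of the 5, was at 13.7 to 31.0 normalised counts in CCD EVs and 9.08 to 22.7 in old EVs.

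Summed EV levels of striated muscle and leukocyte genes overlapped between the groups. Striated muscle genes were at 1296 to 1913 normalised counts in CCD, 1836 to 2481 in old and 1452 to 2780.1 in young EVs. Leukocyte genes were at 521 to 582 in CCD, 547 to 1692 in old and 455 to 2888 in young EVs. Their part in the subunit values was not tested.

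Between old and young EVs the median of the subunits was -0.03, against 0.09 for all genes, and 0 passed the adjusted test (0% of all genes). At an unadjusted p under 0.05 limma had 1 subunit higher and 3 lower, against 0.753% and 0.489% of all genes. At that threshold edgeR had 1 higher and 3 lower, against 0.687% and 1.18% of all genes. DESeq2 had 1 higher and 5 lower, against 1.05% and 1.39%, and both tools called 0 subunits. ATP5MC1, a c-ring gene, was at 81.1, 61.0, 62.25 and 85.15 normalised counts in old EVs, and 55.9, 64.2, 19.7 and 29.7 in young EVs (0.89 ± 0.36, limma adjusted p = 0.9999). ATP5F1E was at 56.2, 35.0, 29.3 and 46.55 in old EVs and 100.1, 71.9, 77.05 and 64.3 in young EVs (-0.92 ± 0.42, limma adjusted p = 0.9999). ATP5F1E and NDUFA13 (-0.60 ± 0.20) were lower in every old library than in every young one, a pattern of 0.403% of all genes, and 0 subunits were higher in this way, against 0.514%. ATP5MK, a small membrane subunit of complex V, was the third lower subunit in limma, at -0.99 ± 0.45 and with overlapping groups.

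Between CCD and young EVs the median was -0.18, against -0.17 for all genes, and 0 subunits passed the adjusted test (0% of all genes). At an unadjusted p under 0.05 limma had COX5B higher and UQCRC1 lower, against 0.136% and 2.71% of all genes. At that threshold edgeR and DESeq2 each had 2 higher and 2 lower, with 0 called. Of all genes, edgeR had 0.791% higher and 0.851% lower, and DESeq2 0.92% and 1.07%. COX5B was read by 1 to 30 reads per library, with 17.6, 18.25, 11.5 and 31.5 normalised counts in CCD EVs and 18.35, 5.14, 5.50 and 0.96 in young EVs (1.65 ± 0.69, limma adjusted p = 0.9999). Young EV_270 lay among the CCD libraries. No subunit separated the groups in either direction, against 0.126% of all genes higher and 2.59% lower.

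**Figure D4:**
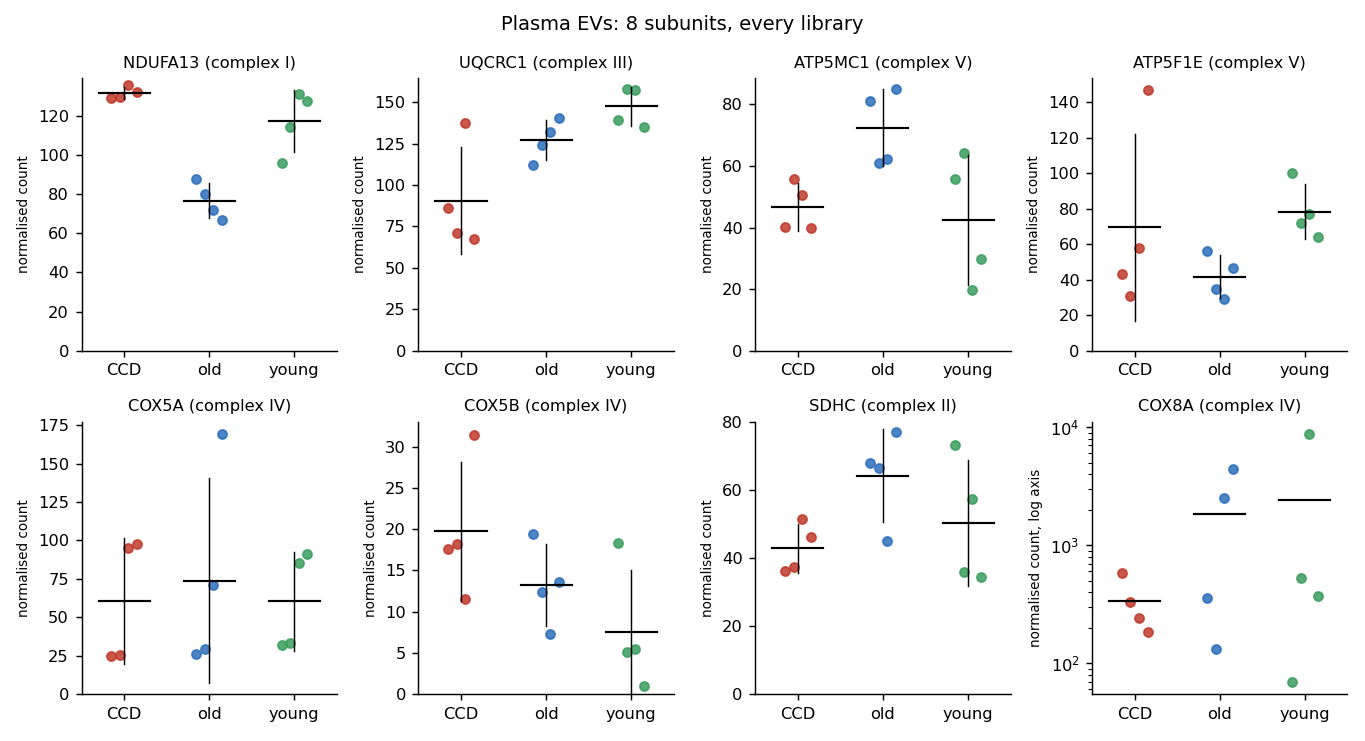
Normalised counts of 8 subunits are plotted for every EV library, with CCD left of old and young; horizontal bars are group means, vertical bars are 1 SD (n = 4 each), and the axis of COX8A is logarithmic, without an SD. NDUFA13 is lowest in the 4 old libraries, UQCRC1 is low in 3 of 4 CCD libraries, and COX8A reaches 8752.6 in young EV_377.

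**Figure D5:**
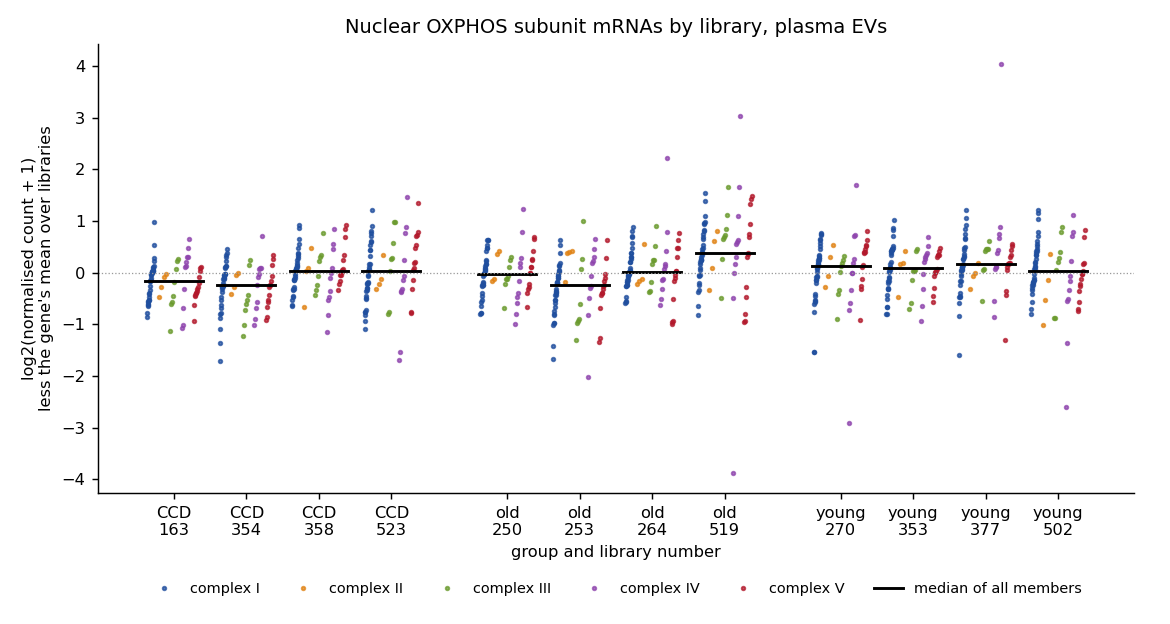
Each point is a tested subunit in an EV library, as its log2(normalised count + 1) less its mean over the 12 libraries; colours mark the complex and black bars are medians over the 73 subunits. The medians run from -0.24 in CCD EV_354 to 0.37 in old EV_519, and the groups overlap.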

How the data were processed

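Reads were handled with STAR and DESeq2, per the submitters' processing notes; the sources used here state no version, genome build, annotation, counter or strand setting. For cortex and for EVs the authors deposited a signal for each gene and repeat family, named normalised counts. All libraries of a table have the same total (23009609 in cortex, 35344491 in EVs). Dividing by a library factor gave whole reads for 100.0% of values (tolerance 0.01). The factor of young cortex_353 is near 1, but its values were not whole before division (COX7B2 at 37.29). The recovered reads gave the depths and the edgeR 4.0.16 and DESeq2 1.42.0 alternatives. Counting error is small for most subunits in cortex, where 2 of 73 had a median under 100 reads. It is large in EVs, where 60 of 73 subunits had a median under 100 reads.

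Genes with a mean of at least 10 (19010 in cortex, 31728 in EVs) were tested as log2(normalised count + 1) in R 4.3.3 with limma 3.58.1 over the 3 groups of a tissue, with a trend, Benjamini-Hochberg adjustment over all of them and a threshold of 0.05. Errors of log2 fold changes are standard errors of that fit, and such values understate the change of low genes. The code was tested on simulated data. Members and gene lists were chosen with earlier results of these data known, so lists are described by counts and medians with no test. Named members are the 2 of smallest p per complex, the largest change each way, the 3 of smallest p in the other comparisons and a set of key subunits whatever their values; 1 member enters the counts and medians but is not reported here by itself; others were named after their values were seen, as ends of a range or members of a small count. All 74 symbols were found in RefSeq of UU_Cfam_GSD_1.0, used for names and neighbours; 17 overlap another protein-coding gene. Alternatives were a pseudocount of 5, no filter or a mean of at least 50, quantile normalisation, centring on the median gene (which moved the median of all genes in CCD over old by over 0.1 in EVs, to -0.02 from -0.27, as the scaling of edgeR and DESeq2 did in cortex, to 0.04 from -0.10, so list medians are given relative to it), the compared groups alone, library weights, edgeR, DESeq2, leaving out each library, and leaving out CCD cortex_358, young cortex_353 and young cortex_377, which are high in meningeal genes. Added after seeing the data were the members free of overlaps and, in EVs, a term for the 2 higher-numbered libraries of each group.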

Additional observations from a re-analysis of the deposited data

Results flagged for a closer look

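In groups of 4 EV libraries, 1 library stood apart from the other 3 by the gap to its nearest neighbour as a share of the group's range in 10 of 111 groups examined, and chance flags about 1 in 20, or 5%. Old EV_519 was the high one for 3 subunits: ATP5F1B at 153.3 normalised counts (59.9 to 73.2 in the other old libraries), ATP5MC3 at 85.2 (18.4 to 22.6 in the others) and SDHB at 145.3 (72.3 to 75.7 in the others). This library was the highest of all 12 for 24 of 73 subunits, against 23.2% of all genes. CCD EV_358 was high for SDHB at 115.3 (67.5 to 70.3 in the other CCD libraries) and for ATP5MC2 at 94.0 (30.1 to 37.2 in the others), and CCD EV_523 for UQCRFS1 at 80.8 (36.2 to 42.6 in the others). In young EVs, CYC1 was at 118.0 in EV_502 (69.4 to 74.2 in the others) and UQCRFS1 was low in EV_270, at 55.0 (72.0 to 74.7 in the others). COX8A was at 8752.6 in young EV_377 (70.1 to 528 in the others), which also set the share of gene reads from complex IV there, 0.112% (0.0107% to 0.0155% in the others).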

How the results depend on the processing

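The median of the subunits in CCD over old cortex, less that of all genes, stayed above 0 in every alternative run, at 0.35 to 0.66 over the libraries left out in turn. The number of subunits called in that comparison, 0 with all libraries and 3 groups, was 12 with the compared groups alone (9 higher, and ATP5F1B, SDHA and UQCRC2 lower), 5 with library weights (8.58% of all genes were called), 31 (of 2922 genes) without CCD cortex_358, young cortex_353 and young cortex_377 together, and 0 to 2 with libraries left out in turn, the 2 being NDUFB9 and ATP5IF1 without young cortex_377. Without those 3 libraries the young group holds young cortex_270 alone, which is assumed to vary like the other groups; 1 subunit was then called in old over young (NDUFB9, among 617 genes) and 1 in CCD over young (ATP5F1B, among 647 genes), and the medians less all genes were -0.16 for complex II and -0.66 for complex IV in old over young and -0.29 for complex II in CCD over young. CCD over young then turned to -0.08 for ATP5MC3, -0.08 for COX4I1 and -0.11 for NDUFA4. Leaving out libraries in turn gave CCD over young ranges of -0.16 to 0.23 for the median of complex II, -0.02 to 0.70 for ATP5MC3 and -0.03 to 0.99 for COX7A1, the low ends all without young cortex_377. With no filter the complex II median in CCD over old cortex was 0.06. In EVs, library weights gave medians of -0.48 for complex IV in old over young, and -0.46 for complex IV and -0.27 for complex V in CCD over young. The cause of these shifts was not tested. No paired analysis was possible because the groups compared within a tissue share no library numbers. Values of named subunits that lay within 1 SE of 0 changed sign in 280 cases over all alternatives and are not listed. Few reads back each subunit in EVs, which limits the precision there.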

Other observations

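In EVs, COX5A, a nuclear subunit of complex IV, split the libraries within every group. It was at 94.9 and 97.6 normalised counts in CCD EV_358 and EV_523 against 24.5 and 25.55 in CCD EV_163 and EV_354, at 70.8 and 169 in old EV_264 and EV_519 against 25.9 and 29.4 in old EV_250 and EV_253, and at 84.9 and 91.15 in young EV_377 and EV_502 against 31.7 and 33.4 in young EV_270 and EV_353. The 6 high libraries are the 2 with the higher label numbers in each group, and the labels name no batch. The same 6 libraries were the highest for 8 of 73 subunits (11%), namely NDUFA11, NDUFB2, NDUFS7, NDUFS8, NDUFV2, UQCR10, COX5A and ATP5F1D, and the lowest for NDUFA7 alone (1.37%), against 3.59% and 4.35% of all genes. In those 6 libraries 20.3% to 25.1% of reads lay in genes, against 15.8% to 20.0% in the other 6. The split was seen in these values and has no test; with a term for it in the fit, 0 subunits were called in the 3 EV comparisons.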
